A study of Mus musculus with 9 samples.

Results

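The cytosolic ribosomal protein genes are the nuclear genes whose products, with ribosomal RNA, make up the ribosomes of the cytoplasm. Members were chosen by symbol: protein-coding genes named Rpl or Rps with a number and at most a short suffix, together with Rplp0, Rplp1, Rplp2 and Rpsa, without pseudogenes and without the Rps6k kinases. The rule found 84 genes among the 56262 in the count tables: 43 of the large subunit, 31 of the small subunit, 3 of the P stalk and 7 paralogs, which are second copies of a ribosomal protein gene elsewhere in the genome. After a filter on low counts 82 of the 84 were tested. Rpl10l, a copy of Rpl10 known from testis, had 0 counts in every library, and Rpl39l, a copy of Rpl39 also known from testis, had between 0 and 8.

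RNA was measured in C57BL/6 wild-type mouse cells labelled long-term hematopoietic stem cells (LT-HSCs), the rare marrow cells that sustain blood formation, in 3 groups of 3 libraries. The 5-FU+FMT mice were given 250 mg/kg of 5-FU, the antimetabolite 5-fluorouracil, which is toxic to cycling cells, and then FMT, an agent that the labels do not spell out, into a vein at 5 mg/kg on days 1, 4 and 7. The 5-FU+Saline mice received the same dose of 5-FU and then saline, which the series text calls PBS and whose schedule is not stated. Control mice were untreated. Treated mice were killed on day 8, and the sort took marrow cells without lineage markers that carried Sca1, c-Kit and CD150; its last gate is written C48- in the labels. The labels state neither the sex of the mice nor whether a library holds cells of 1 mouse or of several, so p-values measure the spread between libraries, which may be technical.

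Libraries held between 11098031 and 19270976 counts. RNA of other cell types and of both sexes differed between the groups. The 8 markers of the B lineage summed to 418 to 462 CPM (library-size-normalised counts, with TMM scaling) in 5-FU+FMT, 909 to 926 in 5-FU+Saline and 52.9 to 53.7 in Control. The 8 erythroid markers summed to 191 to 204 CPM in 5-FU+FMT, 24.3 to 27.4 in 5-FU+Saline and 454 to 464 in Control. The 4 granule genes of neutrophil precursors summed to 847 to 963 in 5-FU+FMT, 122 to 132 in 5-FU+Saline and 2262 to 2296 in Control. The 3 markers of dividing cells summed to 1591 to 1654 CPM in 5-FU+FMT, 2080.0 to 2108 in 5-FU+Saline and 846 to 873 in Control. The 6 stromal markers summed to 45.7 to 48.0 CPM in 5-FU+FMT, 223 to 229 in 5-FU+Saline and 2.61 to 4.47 in Control. The 6 LT-HSC markers summed to 759 to 789.9 in 5-FU+FMT, 592 to 619.7 in 5-FU+Saline and 924 to 934 in Control. Of these 6, 1 was higher and 3 lower (edgeR adjusted p under 0.05) in 5-FU+Saline against Control. The counts were 3 and 0 in 5-FU+FMT against 5-FU+Saline, and 1 and 2 in 5-FU+FMT against Control. That is 66.7%, 50.0% and 50.0%, beside 65.5%, 36.9% and 46.6% of all genes, so their sum does not describe each of them. The 4 immediate-early genes summed to 6458 to 7093 CPM in 5-FU+FMT, 1711 to 1729 in 5-FU+Saline and 16183 to 16262 in Control. The 6 plasma cell genes summed to 8512 to 8817 CPM in 5-FU+FMT, 7588 to 7794 in 5-FU+Saline and 12581 to 12827 in Control. A list of 6 surface-marker genes held Kit, Ly6a, Slamf1, Cd48, Cd34 and Flt3. Cd34 and Flt3 are not in the sort gate as labelled. The list summed to 1386 to 1431 CPM in 5-FU+FMT, 956 to 968 in 5-FU+Saline and 2027 to 2042 in Control. In each comparison 3 of these 6 genes were higher and 3 lower (edgeR adjusted p under 0.05), so the sum does not describe them all. No marker of these lists was at 0 in a group. Xist, transcribed from the silenced X chromosome of female cells, had 682 ± 19.8 CPM in 5-FU+FMT, 1201 ± 20.2 in 5-FU+Saline and 0.870 ± 0.421 in Control (SD, n = 3 each). Together, 4 Y-linked genes had 229.7 ± 5.94 in 5-FU+FMT, 99.2 ± 4.84 in 5-FU+Saline and 366 ± 6.73 in Control. The part of these differences in the values below was not tested, and treatment and the sex of the mice cannot be told apart. In sorted bulk cells, fewer cells of a type and less RNA per cell cannot be told apart either.

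Each ribosome carries one copy of nearly every ribosomal protein, and cells make these proteins in matched amounts; a shortage of one stalls assembly of its subunit. The mRNAs of most of them begin with a C followed by a run of pyrimidines, the TOP motif, through which mTORC1 and the RNA-binding protein LARP1 set their translation, so that RNA level and protein output can part ways. Blood formation is sensitive to these genes: heterozygous loss of several of them causes Diamond-Blackfan anemia in humans, and Rps14 lies in the deleted segment of the human 5q- syndrome.

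Ribosomal protein genes took a larger share of the RNA in both groups given 5-FU than in Control. They held 6.63%, 6.25% and 6.43% of all counts in the 5-FU+FMT libraries, 6.75%, 6.53% and 6.57% in 5-FU+Saline and 6.09%, 5.92% and 5.98% in Control, with 31 of the 84 among the 100 genes of highest CPM. The mean share was 6.44% ± 0.190 in 5-FU+FMT, 6.62% ± 0.115 in 5-FU+Saline and 6.00% ± 0.0855 in Control (SD, n = 3 each). The lowest library of either 5-FU group lay above the highest of Control, while the ranges of 5-FU+FMT and 5-FU+Saline overlapped. Large-subunit genes took 56.2% ± 0.171 of the members' counts in 5-FU+FMT, 56.3% ± 0.0765 in 5-FU+Saline and 55.8% ± 0.138 in Control, a shift of under 1 percentage point in which all 5-FU libraries lay above Control. As a share of protein-coding counts, which hold no immunoglobulin gene segments, the members stood at 6.79% ± 0.201 in 5-FU+FMT, 6.90% ± 0.122 in 5-FU+Saline and 6.48% ± 0.0898 in Control.

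**Figure D1:**
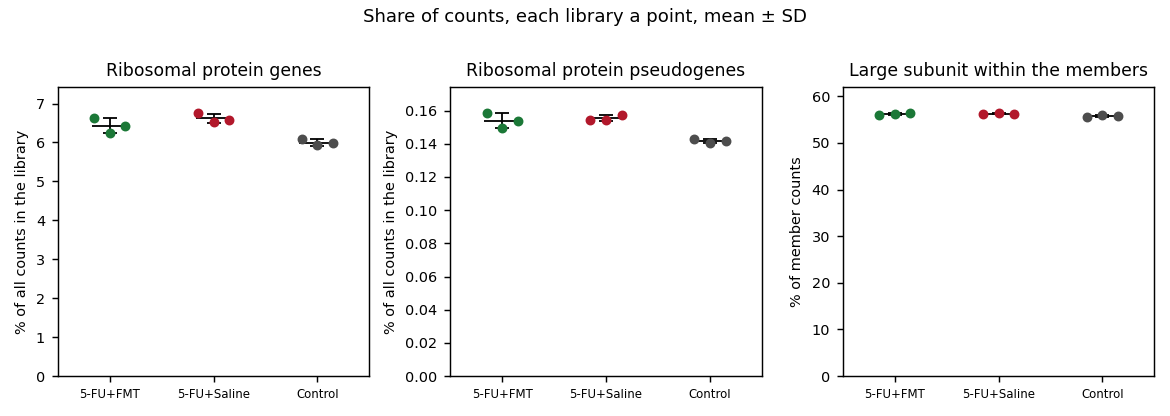
Share of all counts in the ribosomal protein genes (left) and in their pseudogenes (middle), and the large subunit's share of the members' counts (right), in percent. Points are libraries and bars the mean ± SD; the Control libraries of the left panel, at 5.92% to 6.09%, lie below all 6 libraries of the 5-FU groups.

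Gene by gene, the members went both ways, and most of their differences were small. Each comparison was tested with edgeR's quasi-likelihood test and Benjamini-Hochberg adjustment over 16595 genes, and a gene was called at an adjusted p under 0.05; fitted log2 fold changes are given ± SE. In 5-FU+Saline against Control, 42 of the 82 members tested were called higher and 14 lower, 68.3% in all, beside 65.5% of all genes tested, of which 32.8% were called higher and 32.7% lower. Libraries of both groups did not overlap for 54 members (65.9%), beside 67.8% of all genes. The members' median log2 fold change was 0.06, beside -0.02 over all genes, and 62 of the 82 differed by less than 1.2-fold. Their quartiles were -0.04 and 0.17, beside -0.49 and 0.36 over all genes. Members were not compared with genes of like CPM, so small differences are not shown to be a trait of theirs. At a fold of at least 1.5, 1 member was called higher (Rps27l) and 3 lower (Rpl22l1, Rpl24 and Rpl36al), beside 14.0% and 18.4% of all genes. The share of members called was near that of all genes, with more calls on the higher side.

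In 5-FU+FMT against 5-FU+Saline, 6 members were called higher and 30 lower (43.9%), beside 36.9% of all genes (17.7% higher and 19.2% lower). The median log2 fold change was -0.04 over the members and 0.01 over all genes, and 77 of 82 members differed by less than 1.2-fold. Quartiles were -0.08 and 0.01 over the members and -0.17 and 0.24 over all genes. Libraries did not overlap for 22 members (26.8%), beside 46.3% of all genes. At least 1.5-fold, 1 member was called higher (Rpl24) and 0 lower, beside 6.4% and 2.81% of all genes. The count of lower calls was 18 without 5-FU+FMT replicate 2 and 18 without 5-FU+Saline replicate 1, with medians of -0.02 and -0.03, and the median was -0.07 without 5-FU+FMT replicate 1. In 5-FU+FMT against Control, 29 members were called higher and 9 lower (46.3%), beside 46.6% of all genes (25.0% higher and 21.6% lower), with medians of 0.03 and -0.01. Libraries did not overlap for 35 members (42.7%), beside 52.7% of all genes, and 0 members were called higher and 0 lower by at least 1.5-fold, beside 6.79% and 7.82% of all genes. Without 5-FU+FMT replicate 1 the lower calls numbered 14 and the members' median was 0.0011; without 5-FU+FMT replicate 2 that median was 0.06. The comparisons share libraries, so their calls are not independent of each other.

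How many members were called higher or lower depended on how libraries were scaled, as it did for all genes, whose values a scaling shifts by the same amount. In 5-FU+Saline against Control, upper-quartile factors gave 28 higher and 29 lower (34.1% and 35.4%), beside 28.1% and 37.4% of all genes. Factors from protein-coding genes gave 34 and 22 there (41.5% and 26.8%), beside 30.2% and 35.2% of all genes, and total counts 53 and 9 (64.6% and 10.98%), beside 34.7% and 30.9%. In 5-FU+FMT against Control the counts were 20 and 27 with upper-quartile factors, 24 and 17 with protein-coding genes and 45 and 7 with total counts, beside 19.98% and 27.5%, 23.5% and 23.5%, and 28.3% and 18.5% of all genes. In 5-FU+FMT against 5-FU+Saline they were 7 and 21, 8 and 20, and 7 and 28 with the same factors, beside 18.9% and 17.9%, 19.5% and 17.3%, and 18.6% and 18.5%. The members' median minus that of all genes stayed at 0.08 in 5-FU+Saline against Control, 0.04 in 5-FU+FMT against Control and -0.05 in 5-FU+FMT against 5-FU+Saline with each of these factors. Some calls of single members did not depend on it: 20 of the 42 higher and 9 of the 14 lower calls in 5-FU+Saline against Control kept their direction and their call under each of 6 other scalings, one of which set the members' own sum equal in all libraries. The same was true of 6 of 6 higher and 8 of 30 lower calls in 5-FU+FMT against 5-FU+Saline, and of 17 of 29 and 7 of 9 in 5-FU+FMT against Control. How many calls of all genes were kept was not counted, so these counts do not set the members apart.

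**Figure D2:**
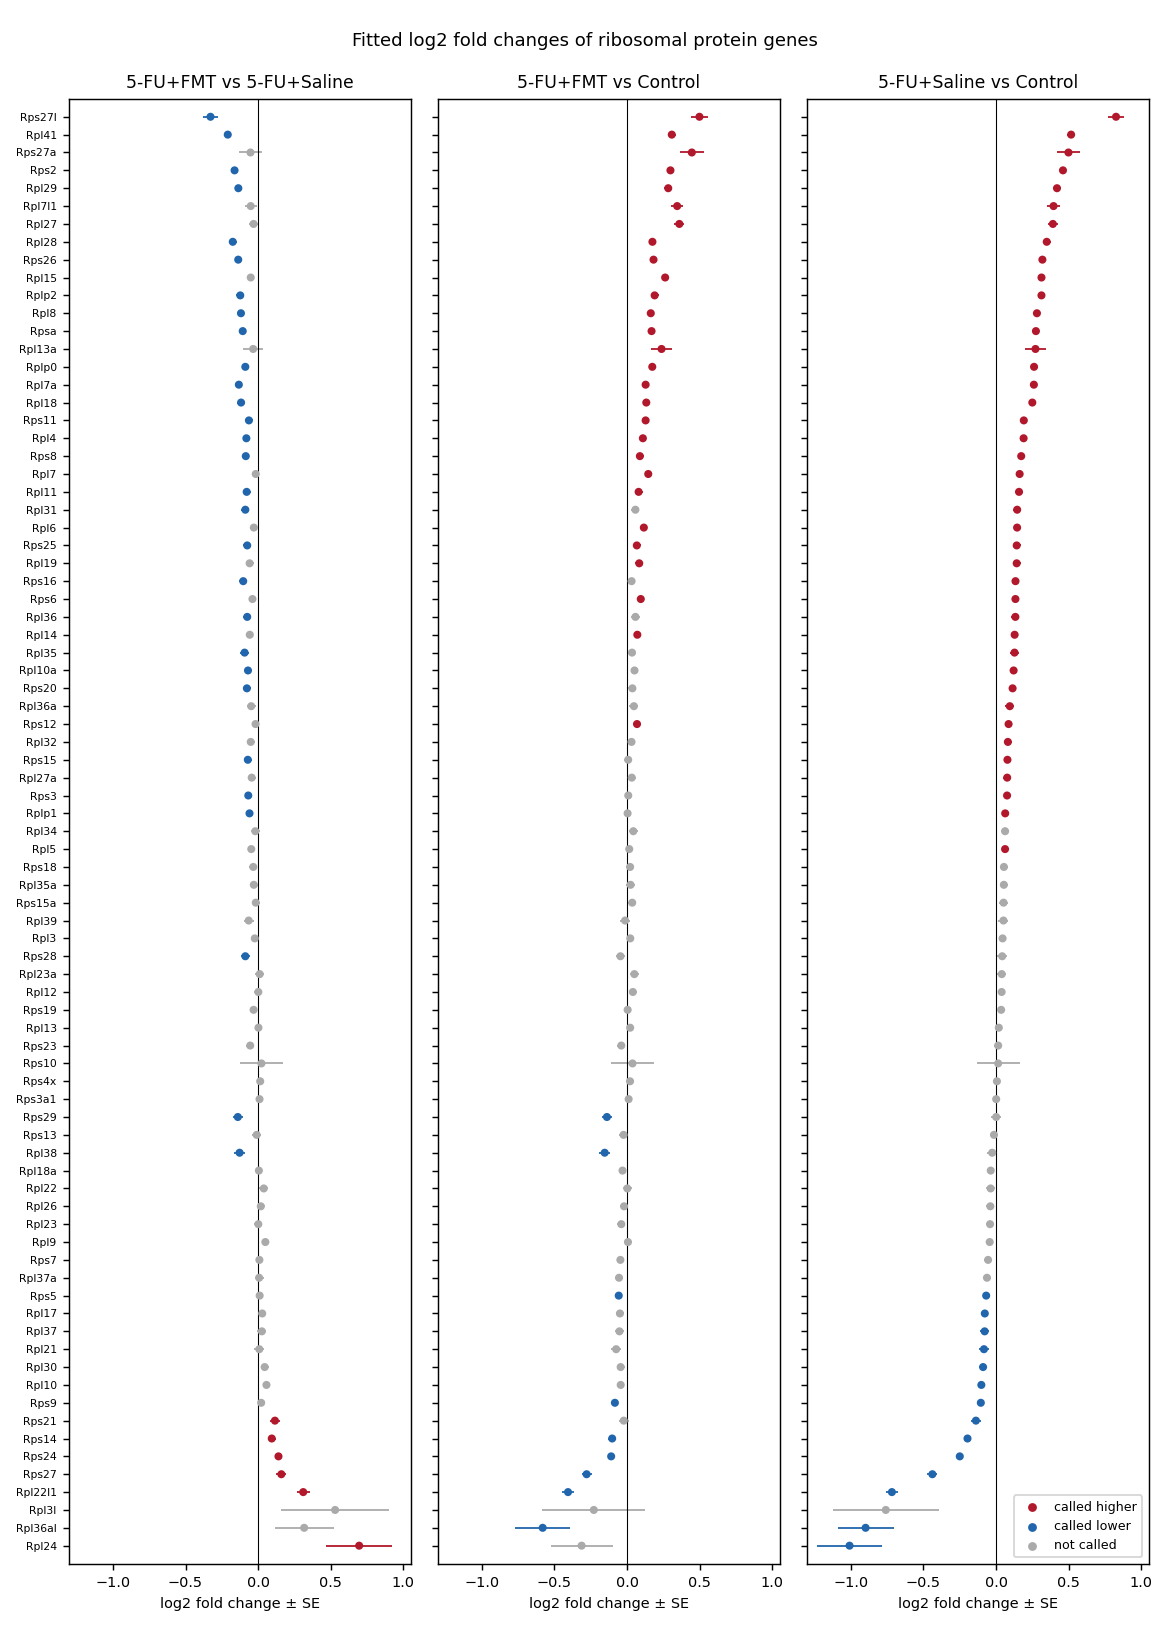
Fitted log2 fold change ± SE of the members tested except 1, in the 3 comparisons, ordered by 5-FU+Saline against Control. Red points were called higher, blue points lower and grey points not called; most lie close to 0, and Rps27l and Rpl22l1 stand at the ends among members above 10 CPM.

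Mean levels in 5-FU+FMT lay between those of the other groups for 68 of the 82 members (82.9%), as they did for 74.6% of all genes tested. For 48 members 5-FU+Saline was highest and Control lowest, and for 20 members the order was the opposite. By calls, 18 members were higher in both 5-FU groups than in Control and lower in 5-FU+FMT than in 5-FU+Saline, among them Rps2, Rpl41, Rpl28, Rpl29, Rplp0, Rplp2 and Rpsa; these were 22.0% of the members, beside 15.02% of all genes. Rps27, Rps24, Rps14 and Rpl22l1 were called the opposite way in each comparison (4.88%, beside 12.4% of all genes). No call was made in any comparison for 23 members (28.0%, beside 31.9% of all genes), including Rpl3, Rps3a1, Rps4x, Rps19 and Rpl22.

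The P stalk is a flexible arm of the large subunit that recruits the GTPases of translation. Its 3 genes were each called higher in 5-FU+Saline against Control, beside 32.8% of all genes, Rplp1 not under every alternative. Rplp0 (chromosome 5, 115559467 to 115563727 on mm10), the stalk's base, had 2575, 2425 and 2491 CPM in the 5-FU+FMT libraries, 2696, 2632 and 2635 in 5-FU+Saline and 2233, 2157 and 2252 in Control. Its 3 groups did not overlap, with 5-FU+Saline highest. Its log2 fold change was 0.26 ± 0.022 (edgeR adjusted p = 3.31e-18) in 5-FU+Saline against Control, -0.09 ± 0.021 (edgeR adjusted p = 5.78e-04) in 5-FU+FMT against 5-FU+Saline and 0.17 ± 0.022 (edgeR adjusted p = 1.34e-10) in 5-FU+FMT against Control. Rplp2, one of the acidic proteins bound to that base, had 574, 540.3 and 541 CPM in the 5-FU+FMT libraries, 619.8, 596 and 588 in 5-FU+Saline and 483, 482 and 487 in Control. It followed the same order, again without overlap, and was 1.24-fold higher in 5-FU+Saline than in Control (log2 0.31 ± 0.027, edgeR adjusted p = 2.65e-17) and 1.09-fold lower in 5-FU+FMT than in 5-FU+Saline (log2 -0.12 ± 0.027, edgeR adjusted p = 1.11e-04). Rplp1, the partner of Rplp2 in the stalk, averaged 1360.4 ± 42.7 CPM in 5-FU+FMT, 1418 ± 52.5 in 5-FU+Saline and 1357 ± 19.4 in Control (SD, n = 3 each). Its difference was smaller, at 0.06 (edgeR adjusted p = 0.0177) on the log2 scale in 5-FU+Saline against Control, and turned to -0.01 with upper-quartile factors. The call of Rplp1 ended with these factors, with protein-coding scaling and with a stricter filter on low counts (edgeR adjusted p = 0.626, 0.382 and 0.739). It also ended without Control replicate 3 or without 5-FU+Saline replicate 1 (edgeR adjusted p = 0.0751 and 0.199).

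Among small-subunit genes, 14 were called higher and 6 lower in 5-FU+Saline against Control, 4 and 13 in 5-FU+FMT against 5-FU+Saline, and 10 and 6 in 5-FU+FMT against Control, of 31 each time. That is 64.5%, 54.8% and 51.6% called, beside 65.5%, 36.9% and 46.6% of all genes. Rps2 (chromosome 17, 24718116 to 24721929), which lines the entry of the mRNA channel, had 2068, 1954 and 2008 CPM in the 5-FU+FMT libraries, 2270.1, 2200.4 and 2276 in 5-FU+Saline and 1642, 1641 and 1619 in Control. All 3 groups were apart, with Control lowest. It was 1.38-fold higher in 5-FU+Saline than in Control (log2 0.46 ± 0.022, edgeR adjusted p = 3.26e-31), 1.12-fold lower in 5-FU+FMT than in 5-FU+Saline (log2 -0.16 ± 0.022, edgeR adjusted p = 2.43e-09) and 1.23-fold higher in 5-FU+FMT than in Control (log2 0.30 ± 0.022, edgeR adjusted p = 3.73e-20). Rpsa, a small-subunit protein also known as the laminin receptor, had 2303, 2181 and 2248 CPM in the 5-FU+FMT libraries, 2494, 2363 and 2388 in 5-FU+Saline and 2040.0, 1959 and 1990.0 in Control. It kept the order of Rps2 without overlap between groups, at 0.27 (edgeR adjusted p = 1.27e-18), -0.11 (edgeR adjusted p = 5.81e-05) and 0.17 (edgeR adjusted p = 8.29e-10) on the log2 scale for 5-FU+Saline over Control, 5-FU+FMT over 5-FU+Saline and 5-FU+FMT over Control. Rps26, which contacts the mRNA near the exit of its channel and is mutated in human Diamond-Blackfan anemia, had 785, 722 and 774 CPM in the 5-FU+FMT libraries, 838, 847 and 823 in 5-FU+Saline and 670.4, 664 and 676 in Control. Its groups did not overlap, and Control was lowest. Its log2 fold change was 0.32 (edgeR adjusted p = 1.14e-18) in 5-FU+Saline against Control and -0.14 (edgeR adjusted p = 7.79e-06) in 5-FU+FMT against 5-FU+Saline. The calls of Rplp0, Rplp2 and Rpsa in 5-FU+FMT against 5-FU+Saline ended when libraries were scaled to the members' own sum (adjusted p = 0.234, 0.0734 and 0.0787).

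In 5-FU+Saline against Control, the strongest falls in the small subunit were in Rps27, Rps24 and Rps14. Rps27 (chromosome 3, 90212522 to 90213651), a zinc-finger protein of the small subunit, had 268, 242 and 244 CPM in the 5-FU+FMT libraries, 236, 219 and 221 in 5-FU+Saline and 318, 294 and 303 in Control. Every Control library was above all others, and 5-FU+FMT lay between Control and 5-FU+Saline. It was 1.36-fold lower in 5-FU+Saline than in Control (log2 -0.44 ± 0.034, edgeR adjusted p = 1.41e-19), 1.12-fold higher in 5-FU+FMT than in 5-FU+Saline (log2 0.16 ± 0.034, edgeR adjusted p = 8.70e-05) and 1.21-fold lower in 5-FU+FMT than in Control (log2 -0.28 ± 0.034, edgeR adjusted p = 6.21e-11). Rps24 (chromosome 14, 24487125 to 24496959), a Diamond-Blackfan anemia gene in humans, had 989, 919.7 and 966 CPM in the 5-FU+FMT libraries, 866, 861 and 881 in 5-FU+Saline and 1049, 1041 and 1013 in Control. Its groups did not overlap either, with Control highest. Its log2 fold changes were -0.25 (edgeR adjusted p = 7.42e-15) in 5-FU+Saline against Control, 0.14 (edgeR adjusted p = 2.11e-06) in 5-FU+FMT against 5-FU+Saline and -0.11 (edgeR adjusted p = 1.17e-04) in 5-FU+FMT against Control. Rps14, the 5q- gene, had 1094, 1010.2 and 1060.2 CPM in the 5-FU+FMT libraries, 1046, 959 and 961 in 5-FU+Saline and 1135, 1126 and 1137 in Control. Control was above both 5-FU groups, which overlapped each other. Its log2 fold changes were -0.20 (edgeR adjusted p = 3.41e-10), 0.09 (edgeR adjusted p = 0.00233) and -0.10 (edgeR adjusted p = 6.19e-04) for 5-FU+Saline over Control, 5-FU+FMT over 5-FU+Saline and 5-FU+FMT over Control. With DESeq2 the adjusted p for 5-FU+FMT against 5-FU+Saline was 0.148. Rps21, a small protein of the small subunit, averaged 295 ± 8.52 CPM in 5-FU+FMT, 273 ± 20.8 in 5-FU+Saline and 300.3 ± 7.78 in Control (SD, n = 3 each). Its log2 fold change was -0.14 (edgeR adjusted p = 2.31e-04) in 5-FU+Saline against Control and 0.12 (edgeR adjusted p = 0.00409) in 5-FU+FMT against 5-FU+Saline. Leaving out 5-FU+Saline replicate 3 ended the second call (adjusted p = 0.205). Rps9, at the mRNA entry, was lower in 5-FU+Saline than in Control by a log2 fold change of -0.11 (edgeR adjusted p = 6.54e-05).

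Rps27a (chromosome 11, 29545846 to 29548109), which encodes ubiquitin fused to a small-subunit protein, was called higher in both 5-FU groups than in Control, but the size of the difference rested on 1 library. It had 665, 663 and 626 CPM in the 5-FU+FMT libraries, 649, 682 and 693 in 5-FU+Saline and 525, 271 and 619.6 in Control. Control replicate 2 was far below all other libraries, and the other Control libraries were below those of both 5-FU groups. For this gene, Control replicate 2 held 47.3% of the mean of the other Control libraries, while for the 914 other genes with at least 200 CPM in Control this ratio ran from 90.6% to 111%. The SD was 3.39% of the mean in 5-FU+FMT, 3.40% in 5-FU+Saline and 38.2% in Control, where the next widest member was Rpl13a at 10.9%. The log2 fold change was 0.45 (edgeR adjusted p = 4.35e-06) in 5-FU+FMT against Control and 0.50 (edgeR adjusted p = 1.72e-07) in 5-FU+Saline against Control. Without Control replicate 2 they were 0.18 (edgeR adjusted p = 2.12e-05) and 0.24 (edgeR adjusted p = 5.32e-08), and with DESeq2 on all libraries 0.46 (adjusted p = 0.148) and 0.53 (adjusted p = 0.0669). Between 5-FU+FMT and 5-FU+Saline it was -0.05 (edgeR adjusted p = 0.656).

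Rps29 and Rpl38 were called lower in 5-FU+FMT than in both other groups, Rpl38 with libraries that overlapped those of 5-FU+Saline. Rps29, a small zinc-finger protein near the mRNA channel and a human Diamond-Blackfan anemia gene, had 359, 322 and 362 CPM in the 5-FU+FMT libraries, 409, 370.2 and 371 in 5-FU+Saline and 385, 367 and 395 in Control. The 5-FU+FMT libraries were below all others, while 5-FU+Saline and Control overlapped. Its log2 fold change was -0.14 ± 0.033 (edgeR adjusted p = 3.94e-04) against 5-FU+Saline and -0.14 ± 0.033 (edgeR adjusted p = 3.32e-04) against Control, beside 0.00 (edgeR adjusted p = 0.989) in 5-FU+Saline against Control. Without 5-FU+FMT replicate 2 the first was -0.09 and the second -0.08, and without 5-FU+Saline replicate 1 the first was -0.09, all still called. Rpl38, a large-subunit protein needed in mouse embryos for the translation of Hox mRNAs, had 174, 166 and 191 CPM in the 5-FU+FMT libraries, 197, 192 and 191 in 5-FU+Saline and 204, 193 and 194 in Control. One 5-FU+FMT library reached the level of the 5-FU+Saline libraries, and the other two were below them; all 5-FU+FMT libraries were below Control. Its log2 fold change was -0.13 (edgeR adjusted p = 0.00357) against 5-FU+Saline and -0.15 (edgeR adjusted p = 3.27e-04) against Control, and the first became -0.09 without 5-FU+FMT replicate 2 (adjusted p = 0.0791) and -0.08 with the members' own sum as library size (adjusted p = 0.159).

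Among large-subunit genes, 23 were called higher and 6 lower in 5-FU+Saline against Control, 1 and 13 in 5-FU+FMT against 5-FU+Saline, and 15 and 1 in 5-FU+FMT against Control, of 43 each time. That is 67.4%, 32.6% and 37.2% called, beside 65.5%, 36.9% and 46.6% of all genes. Rpl41 (chromosome 10, 128548114 to 128549305), a very short basic peptide that bridges both subunits, had 936, 867 and 915 CPM in the 5-FU+FMT libraries, 1089, 1019.8 and 1033 in 5-FU+Saline and 744, 719.9 and 732 in Control. Every 5-FU+Saline library was above every 5-FU+FMT library, and these were above Control. It was 1.43-fold higher in 5-FU+Saline than in Control (log2 0.52 ± 0.026, edgeR adjusted p = 5.86e-30), 1.16-fold lower in 5-FU+FMT than in 5-FU+Saline (log2 -0.21 ± 0.025, edgeR adjusted p = 1.22e-10) and 1.24-fold higher in 5-FU+FMT than in Control (log2 0.31 ± 0.026, edgeR adjusted p = 2.67e-17). Rpl29, which mice can lack and live, had 516, 496 and 507 CPM in the 5-FU+FMT libraries, 566, 553 and 551 in 5-FU+Saline and 419, 422 and 409 in Control. Its groups did not overlap and kept the order of Rpl41. Its log2 fold changes were 0.42 (edgeR adjusted p = 6.59e-24) in 5-FU+Saline against Control, -0.14 (edgeR adjusted p = 1.59e-05) in 5-FU+FMT against 5-FU+Saline and 0.28 (edgeR adjusted p = 5.78e-15) in 5-FU+FMT against Control. Rpl28, a protein of the large subunit that budding yeast lacks, had 803, 742 and 778 CPM in the 5-FU+FMT libraries, 879.7, 852 and 890.0 in 5-FU+Saline and 701, 666 and 690.5 in Control, again in 3 separate ranges. Its log2 fold changes were 0.35 (edgeR adjusted p = 2.29e-20), -0.17 (edgeR adjusted p = 3.76e-08) and 0.17 (edgeR adjusted p = 3.22e-08) for 5-FU+Saline over Control, 5-FU+FMT over 5-FU+Saline and 5-FU+FMT over Control.

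Rpl27 and Rpl15, both linked to Diamond-Blackfan anemia in humans, were higher in both 5-FU groups than in Control but not called between 5-FU+FMT and 5-FU+Saline. Rpl27 had 625, 569.6 and 598 CPM in the 5-FU+FMT libraries, 677, 578 and 579 in 5-FU+Saline and 494, 458 and 446 in Control. Rpl15 had 783, 753 and 747 CPM in the 5-FU+FMT libraries, 781, 793 and 789.7 in 5-FU+Saline and 633, 641 and 629.6 in Control. Both 5-FU groups were above Control for each gene, and log2 fold changes in 5-FU+FMT against 5-FU+Saline were -0.03 (edgeR adjusted p = 0.502) and -0.05 (edgeR adjusted p = 0.0973). Their log2 fold changes against Control were 0.36 (edgeR adjusted p = 7.24e-15) and 0.26 (edgeR adjusted p = 5.23e-15) in 5-FU+FMT, and 0.39 (edgeR adjusted p = 5.23e-17) and 0.31 (edgeR adjusted p = 4.62e-19) in 5-FU+Saline. Rpl7a, which in 5-FU+Saline was 1.20-fold higher than in Control (log2 0.26 ± 0.024, edgeR adjusted p = 9.41e-16), was 1.10-fold lower in 5-FU+FMT than in 5-FU+Saline (log2 -0.13 ± 0.024, edgeR adjusted p = 4.94e-06). Of the large-subunit genes called lower in 5-FU+Saline, the X-linked Rpl10, which joins the subunit late and completes its active centre, averaged 1132 ± 38.3 CPM in 5-FU+FMT, 1088 ± 35.8 in 5-FU+Saline and 1168 ± 23.0 in Control (SD, n = 3 each). Its log2 fold change was -0.10 (edgeR adjusted p = 2.16e-04) in 5-FU+Saline against Control. Rpl30, Rpl21 and Rpl37 were also called lower there, at -0.09, -0.08 and -0.08 (edgeR adjusted p = 0.00366, 0.0251 and 0.0223), and with total counts all 3 were not called (adjusted p = 0.055, 0.160 and 0.165). The other X-linked members had log2 fold changes in that comparison of 0.09 for Rpl36a, 0.05 for Rpl39 and 0.01 for Rps4x, of which Rpl36a alone was called, and not with upper-quartile factors (adjusted p = 0.627).

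**Figure D3:**
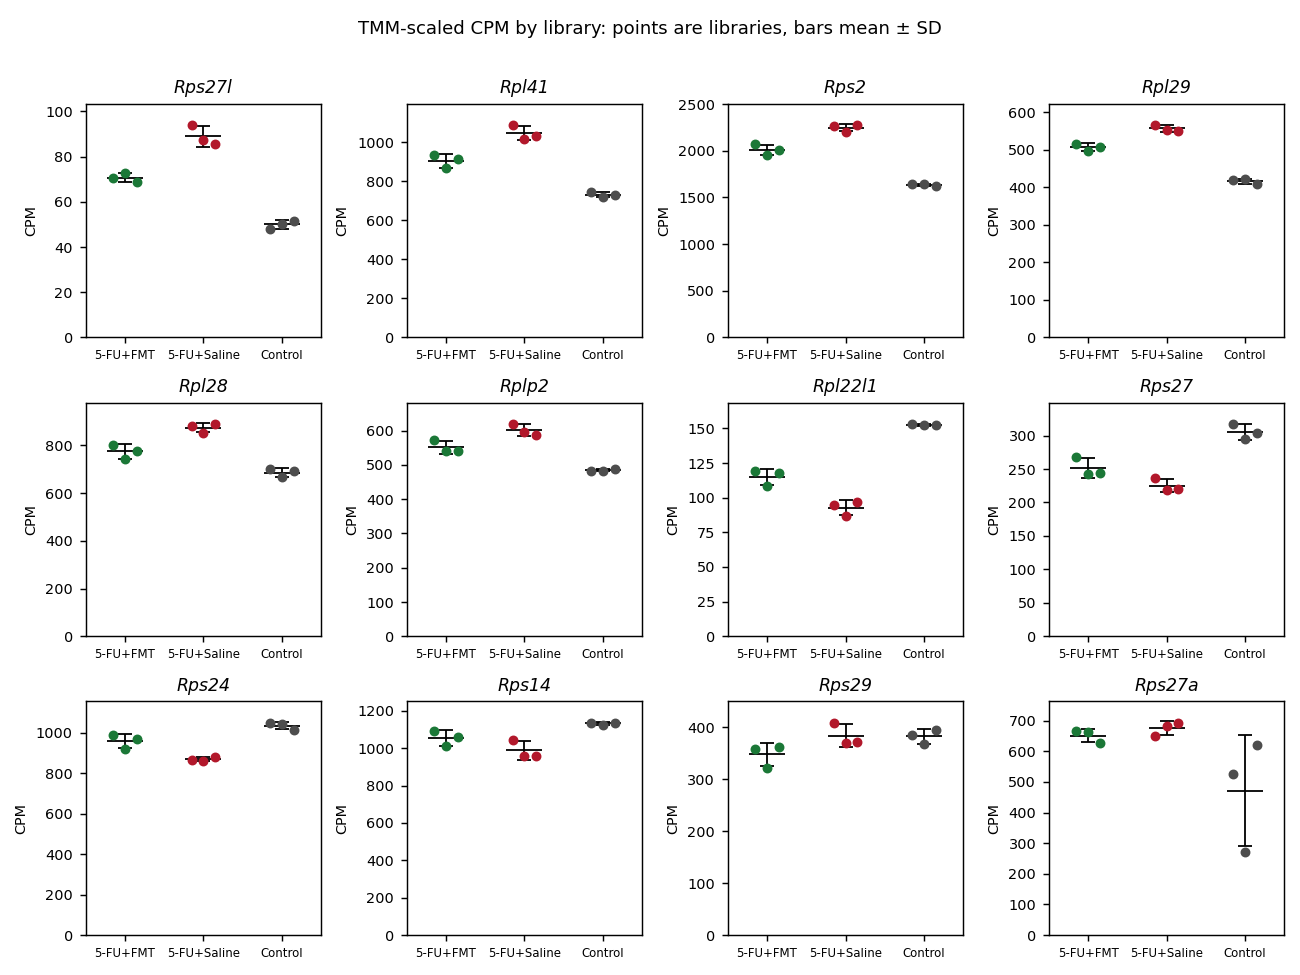
CPM of 12 members in each library, by group; points are libraries and bars the mean ± SD. In Rps27l, Rpl41, Rps2, Rpl29, Rpl28 and Rplp2 the mean of 5-FU+Saline is highest and Control lowest, in Rpl22l1, Rps27, Rps24 and Rps14 the order is the opposite, Rps29 is lowest in 5-FU+FMT, and Rps27a has 1 low Control library.

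The widest differences among members above 10 CPM were in paralogs, and the ratio of a paralog to its canonical gene differed with them. Rps27l (chromosome 9, 66946086 to 66949516), a copy of Rps27 known as a target of the tumour suppressor p53, had 70.6, 72.7 and 68.9 CPM in the 5-FU+FMT libraries, 93.9, 87.1 and 85.6 in 5-FU+Saline and 48.2, 50.0 and 51.7 in Control. Its 3 groups were apart, and Control was lowest. It was 1.77-fold higher in 5-FU+Saline than in Control (log2 0.83 ± 0.054, edgeR adjusted p = 3.50e-23), 1.26-fold lower in 5-FU+FMT than in 5-FU+Saline (log2 -0.33 ± 0.052, edgeR adjusted p = 2.02e-07) and 1.41-fold higher in 5-FU+FMT than in Control (log2 0.50 ± 0.056, edgeR adjusted p = 4.28e-12). Rps27 itself stood in the opposite order, and Rps27l counts came to 26.3%, 30.03% and 28.2% of Rps27 counts in 5-FU+FMT, 39.7%, 39.8% and 38.7% in 5-FU+Saline and 15.2%, 17.0% and 17.0% in Control. This ratio does not depend on library scaling. The ratio was 2.41-fold higher in 5-FU+Saline than in Control (log2 1.27 ± 0.057, SE) and 1.40-fold lower in 5-FU+FMT than in 5-FU+Saline (log2 -0.49 ± 0.057).

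The Rpl22 pair moved the other way. Rpl22l1 (chromosome 3, 28805436 to 28807424), which stands in for Rpl22 in the ribosome and is repressed by it in mice, had 119, 108 and 118 CPM in the 5-FU+FMT libraries, 94.8, 86.5 and 96.7 in 5-FU+Saline and 153, 152 and 152 in Control. Control was highest, 5-FU+Saline lowest, and no group overlapped another. It was 1.64-fold lower in 5-FU+Saline than in Control (log2 -0.72 ± 0.043, edgeR adjusted p = 1.84e-25), 1.24-fold higher in 5-FU+FMT than in 5-FU+Saline (log2 0.31 ± 0.044, edgeR adjusted p = 1.02e-08) and 1.33-fold lower in 5-FU+FMT than in Control (log2 -0.41 ± 0.042, edgeR adjusted p = 2.38e-13). Rpl22 itself (chromosome 4, 152325742 to 152334071), an RNA-binding protein needed for T cell development in mice, averaged 416 ± 6.70 CPM in 5-FU+FMT, 405 ± 22.8 in 5-FU+Saline and 415 ± 12.1 in Control (SD, n = 3 each). Its log2 fold changes were -0.04 (edgeR adjusted p = 0.269), 0.04 (edgeR adjusted p = 0.321) and 0.00 (edgeR adjusted p = 0.973) for 5-FU+Saline over Control, 5-FU+FMT over 5-FU+Saline and 5-FU+FMT over Control. Rpl22l1 counts were 28.2%, 26.5% and 28.3% of Rpl22 counts in 5-FU+FMT, 21.99%, 22.2% and 24.6% in 5-FU+Saline and 35.7%, 37.1% and 37.5% in Control. The ratio was 1.61-fold lower in 5-FU+Saline than in Control and 1.21-fold higher in 5-FU+FMT than in 5-FU+Saline.

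Rpl7l1, a copy of Rpl7, had 123, 122 and 127 CPM in the 5-FU+FMT libraries, 131, 131 and 124 in 5-FU+Saline and 101, 93.9 and 98.0 in Control. Both 5-FU groups were above Control and overlapped each other. Its log2 fold changes were 0.40 (edgeR adjusted p = 2.09e-13) in 5-FU+Saline against Control, -0.05 (edgeR adjusted p = 0.351) in 5-FU+FMT against 5-FU+Saline and 0.34 (edgeR adjusted p = 1.19e-10) in 5-FU+FMT against Control. Its counts were 10.6% ± 0.518 of those of Rpl7 in 5-FU+FMT, 10.9% ± 0.245 in 5-FU+Saline and 9.21% ± 0.173 in Control (SD, n = 3 each). Rpl36al, a copy of the X-linked Rpl36a on chromosome 12, had 3.86 to 7.37 CPM in 5-FU+FMT, 2.99 to 4.89 in 5-FU+Saline and 6.69 to 8.37 in Control. Its counts came to 1.59% ± 0.538 of the counts of Rpl36a in 5-FU+FMT, 1.24% ± 0.327 in 5-FU+Saline and 2.44% ± 0.285 in Control. Rpl36al shared 24.5% of its exon bases with another annotated gene, and whether this lowered its counts was not tested. It was called lower in both 5-FU groups than in Control, in 5-FU+FMT not without replicate 1 or 2 of that group (adjusted p = 0.059 and 0.101). Rpl3l, the copy of Rpl3 used in muscle, had 16 to 33 counts in any library and was called in no comparison. Rps4l, a copy of Rps4x annotated as a pseudogene and so no member, stood at 0.805% ± 0.0297 of Rps4x counts in 5-FU+FMT, 0.945% ± 0.0987 in 5-FU+Saline and 0.615% ± 0.0940 in Control. Of 18 tests of these 6 ratios, the two-sided exact permutation test over 3 and 3 libraries gave p = 0.1, the smallest it can give, wherever the ranges did not overlap, and 0.15 after adjustment, so that no ratio could pass a threshold of 0.05.

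**Figure D4:**
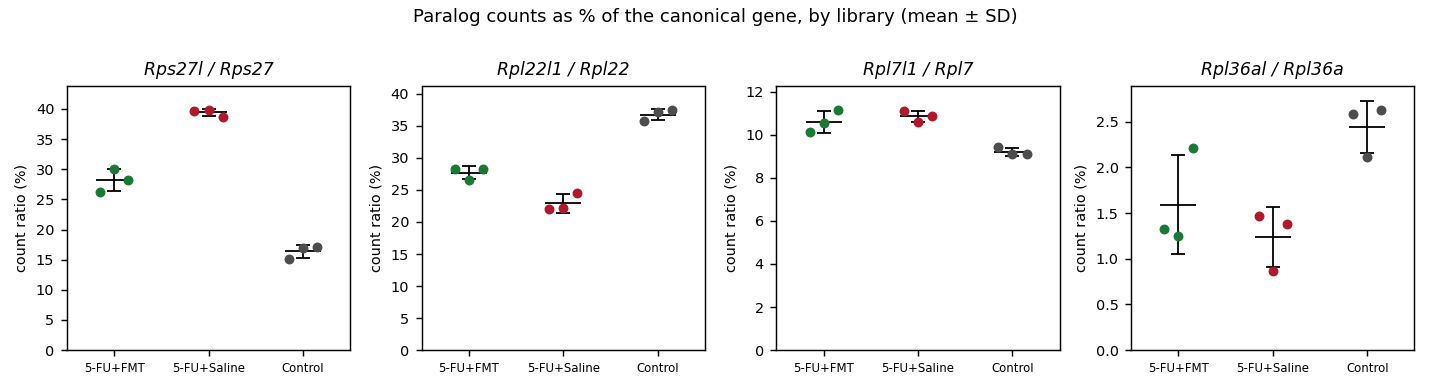
Counts of 4 paralogs as a percent of the counts of their canonical gene, by library; points are libraries and bars the mean ± SD (n = 3). Rps27l to Rps27 is highest in 5-FU+Saline at 39.4% and lowest in Control at 16.4%, and Rpl22l1 to Rpl22 is lowest in 5-FU+Saline at 22.9% and highest in Control at 36.8%.

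The sequences around the starts of transcription are shown for both paralog pairs, whose genes stood in different orders across the groups, and for Rps24 and Rpl41, picked for their differences. They are 30 bases before and 30 after the RefSeq start on GRCm38.p6, 5′ to 3′ on the gene's own strand: Rps27 at chr3:90213619-90213678 on the minus strand, Rps27l at chr9:66946056-66946115 on the plus strand, Rpl22 at chr4:152325696-152325755 on the plus strand, Rpl22l1 at chr3:28805478-28805537 on the plus strand, Rps24 at chr14:24490648-24490707 on the plus strand and Rpl41 at chr10:128549139-128549198 on the minus strand. Capitals mark a pyrimidine followed by a C and at least 4 more pyrimidines beginning within 5 bases of the start, the letters of a TOP-type start, or the motif CCGGAAG, which ETS-family factors recognise.
Rps27: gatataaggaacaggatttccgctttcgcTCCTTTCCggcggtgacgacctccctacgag
Rps27l: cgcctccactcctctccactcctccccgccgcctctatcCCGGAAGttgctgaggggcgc
Rpl22: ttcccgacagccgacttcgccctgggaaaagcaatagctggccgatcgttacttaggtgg
Rpl22l1: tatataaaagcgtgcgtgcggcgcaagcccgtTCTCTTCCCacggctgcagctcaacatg
Rps24: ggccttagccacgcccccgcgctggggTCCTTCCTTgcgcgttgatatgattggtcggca
Rpl41: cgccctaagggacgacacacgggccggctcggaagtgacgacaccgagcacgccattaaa
Rps27, Rpl22l1 and Rps24 had such a run at the RefSeq start, and Rps27l had none and held CCGGAAG. These picked genes cannot show how a motif goes with direction, and the counts over more members follow below. Rpl22 and Rpl41 held neither in these 60 bases. The RefSeq start of Rps24 lies 3553 bases inside the gene as the count tables delimit it, that of Rpl41 137 bases and that of Rpl22l1 72 bases.

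Windows of 250 bases before and 50 after the RefSeq start were found for 64 of the 84 members. The pyrimidine run, searched on the gene's strand, began within 5 bases of the start in 22 of the 64 (34.4%), beside 10.5% of 27025 promoters, 1 per gene. It was present in 12 of 31 members called higher in 5-FU+Saline against Control, in 5 of 9 called lower and in 5 of 22 not called. CCGGAAG, searched on both strands of the whole window, was in 25 of 64 members (39.1%), beside 9.12% of all promoters, and in 15 of 31, 2 of 9 and 7 of 22 of the same sets. CACGTG, the E-box bound by MYC, was in 5 of 64 (7.81%), beside 7.24%. For a member the RefSeq start nearest the 5′ end of the counted gene was used. For all promoters the first listed start of each gene was used, so these shares rest on unlike choices of start. A match is a description of letters, and RefSeq starts may differ by a few bases from those used in these cells.

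Per kilobase of exon, the levels of the members spanned a wide range. Rplp1 was highest at 2726, 2841 and 2720.2 CPM per kb in 5-FU+FMT, 5-FU+Saline and Control, followed by Rps3a1 at 1649, 1638 and 1637, Rplp0 at 1505, 1600.0 and 1334, Rps15 at 1228, 1289.8 and 1222 and Rpl36 at 1212, 1277 and 1164 in the same order of groups. At the low end stood Rpl3l (1.06, 0.739 and 1.27 CPM per kb), Rps10 (3.69, 3.65 and 3.61), Rpl24 (4.01, 2.46 and 4.91), Rpl36al (3.88, 3.09 and 5.73) and Rpl13a (21.5, 22.0 and 18.1). Rps10, Rpl24 and Rpl13a are subunits of every ribosome, and each shared exon bases with another annotated gene: 28.7%, 47.0% and 35.4% of theirs. The overlapping genes RPS10-NUDT3, Gm28037 and Gm45713 each had 0 CPM in every library. Rpl36al shared 24.5% of its exon bases with Gm49383, which also had 0 CPM in every library. The file headers show no option to count a read pair that fits more than one gene, and whether this set the low counts was not tested; 39 of the 84 share some exon bases with another gene, and Rpl23a and Rpl35 share 62.3% and 66.2%. With 2.04 to 6.18 CPM in any library, Rpl24 was called lower in 5-FU+Saline against Control (log2 -1.01 ± 0.22, edgeR adjusted p = 5.63e-05) and higher in 5-FU+FMT against 5-FU+Saline (log2 0.70 ± 0.23, edgeR adjusted p = 0.0113), the second of which ended without 5-FU+Saline replicate 2 (adjusted p = 0.0746).

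Of the 21 members whose human counterparts are mutated in Diamond-Blackfan anemia or deleted in the 5q- syndrome, 10 were called higher and 3 lower in 5-FU+Saline against Control, 3 and 9 in 5-FU+FMT against 5-FU+Saline, and 6 and 4 in 5-FU+FMT against Control. That is 61.9%, 57.1% and 47.6% called, beside 65.5%, 36.9% and 46.6% of all genes. Their medians were 0.05, -0.05 and 0.03 on the log2 scale. Rps19, the gene mutated most often in that anemia, had 991, 938 and 978 CPM in the 5-FU+FMT libraries, 1022, 971 and 978 in 5-FU+Saline and 994, 955 and 950.5 in Control. All groups overlapped, and it was called in no comparison, with a log2 fold change of 0.03 (edgeR adjusted p = 0.210) in 5-FU+Saline against Control. Rpl5 and Rpl11, which bind Mdm2 together and so link ribosome assembly to p53, had their highest averages in 5-FU+Saline. Rpl5 averaged 1122 ± 35.3 CPM in 5-FU+FMT, 1159.6 ± 12.5 in 5-FU+Saline and 1111 ± 17.4 in Control, and Rpl11 averaged 704 ± 24.9 CPM in 5-FU+FMT, 744 ± 42.6 in 5-FU+Saline and 667 ± 16.2 in Control (SD, n = 3 each). Rpl11 was called in all 3 comparisons (log2 0.16, -0.08 and 0.08, edgeR adjusted p = 8.59e-07, 0.0194 and 0.0154 for 5-FU+Saline over Control, 5-FU+FMT over 5-FU+Saline and 5-FU+FMT over Control). The first call ended with the members' own sum as library size (adjusted p = 0.197). The call in 5-FU+FMT against 5-FU+Saline ended in 8 alternatives, with an adjusted p between 0.0515 and 0.503 and a log2 fold change of -0.03 without 5-FU+Saline replicate 1 (adjusted p = 0.409). That in 5-FU+FMT against Control ended in 7, with an adjusted p between 0.0836 and 0.723. Rpl5 was called in 5-FU+Saline against Control alone, at 0.06 (edgeR adjusted p = 0.0175) on the log2 scale, and its sign turned with upper-quartile factors.

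Genes that work with the members were counted from lists. Of the ribosome components whose names fall outside the rule, Rack1, a scaffold on the small subunit, had 1419 CPM in 5-FU+FMT, 1466 in 5-FU+Saline and 1329.7 in Control and was higher in 5-FU+Saline than in Control (log2 0.14, edgeR adjusted p = 2.50e-07). Fau, which encodes a small-subunit protein fused to a ubiquitin-like peptide, had 531 CPM in 5-FU+FMT, 508 in 5-FU+Saline and 567 in Control and was lower there (log2 -0.16, edgeR adjusted p = 2.56e-07). Of 18 translation factors and other genes with TOP mRNAs, 13 were called higher and 2 lower in 5-FU+Saline against Control, 2 and 7 in 5-FU+FMT against 5-FU+Saline, and 13 and 2 in 5-FU+FMT against Control (83.3%, 50.0% and 83.3%, beside 65.5%, 36.9% and 46.6% of all genes), with medians of 0.20, -0.05 and 0.14 on the log2 scale. Nap1l1, a histone chaperone, had 523 CPM in 5-FU+FMT, 633 in 5-FU+Saline and 361 in Control. Eef1g, a subunit of the elongation factor that reloads eEF1A, had 875 CPM in 5-FU+FMT, 1045 in 5-FU+Saline and 689 in Control. Eif4a2, an RNA helicase of initiation, ran the other way with 654 CPM in 5-FU+FMT, 475 in 5-FU+Saline and 929.6 in Control. In 5-FU+Saline against Control these 3 differed by 0.81, 0.60 and -0.97 on the log2 scale, all called.

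Of 13 genes of mTORC1 and LARP1, which govern the translation of TOP mRNAs, 9 were called higher and 2 lower in 5-FU+Saline against Control, 0 and 6 in 5-FU+FMT against 5-FU+Saline, and 4 and 1 in 5-FU+FMT against Control (84.6%, 46.2% and 38.5%, beside the same shares of all genes). Larp1 had 326 CPM in 5-FU+FMT, 392 in 5-FU+Saline and 295 in Control, a log2 fold change of 0.41 in 5-FU+Saline against Control (edgeR adjusted p = 2.32e-21) and of -0.26 in 5-FU+FMT against 5-FU+Saline (edgeR adjusted p = 3.39e-12). Tsc1 and Tsc2, which restrain mTORC1, were the 2 lower ones, at -0.21 and -0.16. Of 19 tested genes that escort ribosomal proteins or finish subunit assembly, 11 were called higher and 1 lower in 5-FU+Saline against Control. The counts were 0 and 10 in 5-FU+FMT against 5-FU+Saline, and 8 and 2 in 5-FU+FMT against Control. That is 63.2%, 52.6% and 52.6% called, beside 65.5%, 36.9% and 46.6% of all genes. The medians of this list were 0.23, -0.20 and 0.08. Eif6, which keeps new large subunits from joining too early, had 94.7 CPM in 5-FU+FMT, 115 in 5-FU+Saline and 74.7 in Control. Grwd1, an escort of Rpl3, had 48.2 CPM in 5-FU+FMT, 56.3 in 5-FU+Saline and 34.8 in Control. Sbds, which helps to release Eif6, was the one called lower in 5-FU+Saline, with 55.7 CPM in 5-FU+FMT, 52.0 in 5-FU+Saline and 65.3 in Control. Bccip, an escort of Rpl23, and Heatr3, which carries Rpl5 and Rpl11, were higher in 5-FU+Saline than in Control by 0.57 and 0.45 on the log2 scale and differed by -0.29 and -0.29 in 5-FU+FMT against 5-FU+Saline, all called. Beside them, the members' medians in the 3 comparisons were 0.06, -0.04 and 0.03.

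Pseudogenes of ribosomal proteins bear on the members because reads from a processed copy and from its parent can be hard to tell apart. The 300 pseudogene entries held 0.154% ± 0.00443 of all counts in 5-FU+FMT, 0.155% ± 0.00170 in 5-FU+Saline and 0.142% ± 0.00103 in Control (SD, n = 3 each). They were 2.33% ± 0.00246 in 5-FU+FMT, 2.29% ± 0.0511 in 5-FU+Saline and 2.31% ± 0.0157 in Control of the counts of members and pseudogenes together. Pseudogene reads thus took close to the same proportion in each group. Of the 70 tested, 12 were called higher and 7 lower in 5-FU+Saline against Control, 1 and 6 in 5-FU+FMT against 5-FU+Saline, and 10 and 4 in 5-FU+FMT against Control. In 5-FU+Saline against Control 27.1% of them were thus called, beside 65.5% of all genes, and in the other comparisons the counts stood beside 36.9% and 46.6% of all genes. Reads that matched a parent and a copy equally well may be missing from both, so the level of any single member with many copies is uncertain. Across the 77 canonical members, the log2 fold change in 5-FU+Saline against Control had a Spearman correlation of -0.06 with exon length and 0.21 with mean CPM, given as a description over genes that share the same libraries.

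**Figure D5:**
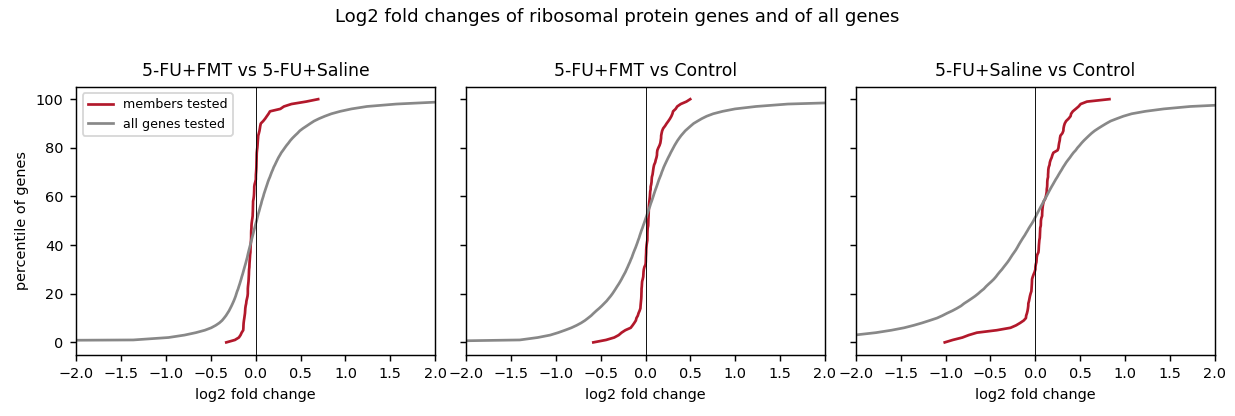
Percentiles of the fitted log2 fold changes of the 82 members tested (red) and of all 16595 genes tested (grey) in the 3 comparisons, between -2 and 2. The members' curve is much steeper around 0 in each, with medians of -0.04, 0.03 and 0.06 beside 0.01, -0.01 and -0.02 for all genes. The grey curve is not limited to genes of like CPM.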

How the data were processed

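The authors deposited raw counts of read pairs per gene, made with featureCounts 2.0.1 over exons of the GENCODE M25 annotation with no strand option, per the file headers. The submitters' processing notes name Trim Galore 0.6.5, HISAT2 2.2.1 and SAMtools as tools and mm10 as the build. Symbols for 55141 of 56262 IDs came from a reference table, and biotypes from GENCODE M21. Exon overlaps were computed from the exon coordinates in the count tables.

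Low genes were removed with filterByExpr, TMM scaled the libraries, and edgeR 4.0.16 (R 4.3.3, with limma 3.58.1) fitted the 3 groups in a single quasi-likelihood model. CPM are counts over TMM-scaled library size, and fold changes are fitted values ± SE. P-values were adjusted by the Benjamini-Hochberg method over 16595 genes. Ratios of paralogs were tested by exact permutation in SciPy 1.17.1. Alternatives were other scalings, filters on low counts, DESeq2 1.42.0, limma-voom, fewer groups, a replicate block and each library left out. The test was run on simulated counts for 5-FU+Saline against Control, with the same spread given to every gene, which real genes need not share. It recovered 46% of changes of 1.2-fold, 76% of 1.5-fold and 96% of 2.0-fold, and called 5 of 15862 unchanged genes.

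Members and gene lists were chosen with earlier results of these data known. The genes named are, per comparison and direction, up to 10 called members with the largest fold and at least 10 CPM in a group, the 5 highest and lowest per kilobase, all paralog pairs, the stalk, Rpsa, Fau, Rack1, Rps19, Rpl5, Rpl11 and Rps14, and up to 3 genes per list and direction; others were chosen after their values were seen, and some genes are not reported here. Depth is given as total counts. Sequences are from RefSeq (GRCm38.p6). Figures were drawn with matplotlib 3.10.9.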

Additional observations from a re-analysis of the deposited data

How the results depend on the processing

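Members called in 5-FU+Saline against Control numbered 29 lower with upper-quartile factors, 9 with total counts, 22 with protein-coding scaling, 9 without a filter on low counts and 22 with a stricter filter (at least 10 CPM in 3 libraries). These were 35.4%, 10.98%, 26.8%, 10.8% and 28.2% of the members tested, beside 37.4%, 30.95%, 35.2%, 16.4% and 38.15% of all genes. Scaling to the members' own sum, chosen after seeing the data, gave 20 higher and 32 lower (24.4% and 39.0%), beside 25.8% and 39.0% of all genes. The members' median there was -0.014 with upper-quartile factors, 0.024 with protein-coding scaling, 0.106 without a filter, 0.023 with the stricter filter and -0.048 with the members' sum. Over all genes' median it was 0.123 without a filter and 0.018 with the stricter one. With the 2 scalings that reversed it, Rpl5 stood at -0.015 and -0.048, Rplp1 at -0.014 and -0.048, and Rps19, with the members' sum, at -0.075. In 5-FU+FMT against 5-FU+Saline the members' sum gave 8 lower calls (9.76%, beside 12.9% of all genes) and a median of 0.0058. Leaving out a library gave 18 to 38 lower calls there (21.95% to 46.3%, beside 16.03% to 19.1% of all genes). In 5-FU+FMT against Control, 45, 46 and 17 were higher with total counts, no filter and the members' sum (54.9%, 55.4% and 20.7%, beside 28.3%, 14.6% and 19.2% of all genes). There, 27, 17, 19 and 22 were lower with upper-quartile factors, protein-coding scaling, the stricter filter and the members' sum. These were 32.9%, 20.7%, 24.4% and 26.8%, beside 27.5%, 23.5%, 30.5% and 25.95% of all genes. Leaving out a library gave 6 to 14 lower (7.32% to 17.1%, beside 18.2% to 20.97% of all genes). The median there was -0.034 with upper-quartile factors, 0.070 with total counts, 0.075 without a filter, -0.032 with the members' sum, and -0.0017 over all genes' median with the stricter filter. Upper-quartile factors put Rplp1 at -0.062 and Rps19 at -0.062. Scaling to the members' own sum centres them by construction, and scaling factors shift all genes alike; for the filters the cause was not tested. With protein-coding counts as the denominator, as in the text above, the members' share was 6.79% in 5-FU+FMT, 6.90% in 5-FU+Saline and 6.48% in Control, and members and pseudogenes together held 6.59% of all counts in 5-FU+FMT, 6.77% in 5-FU+Saline and 6.14% in Control. Without single libraries, the log2 ratio of Rpl3l to Rpl3 in 5-FU+FMT against Control ran between -0.42 and 0.033, turning without Control replicate 2. The replicate block gave 46 higher and 16 lower in 5-FU+Saline against Control, beside 32.7% and 32.6% of all genes. It gave 7 and 33 in 5-FU+FMT against 5-FU+Saline, beside 17.97% and 19.35%, and 31 and 10 in 5-FU+FMT against Control, beside 25.05% and 21.45%. Deviations of same-numbered libraries from the group means correlated between -0.02 and 0.02 over 9 pairs. Pairs with different numbers ran from -0.03 to 0.03. With 3 libraries per group, this cannot show whether same-numbered libraries were paired.

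Under all 21 alternatives, 19 of 42 higher and 9 of 14 lower calls kept direction and call in 5-FU+Saline against Control, 3 of 6 and 8 of 30 in 5-FU+FMT against 5-FU+Saline, and 15 of 29 and 6 of 9 in 5-FU+FMT against Control. The calls of all genes were not followed in this way. Members under 10 CPM rest on few reads.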

Other observations

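Spread between libraries of a group was low for most of the 78 members with at least 30 CPM in every group: the median SD was 3.76% of the mean in 5-FU+FMT, 2.84% in 5-FU+Saline and 2.03% in Control. The widest in 5-FU+FMT was Rpl38 at 7.22%, in 5-FU+Saline Rpl27 at 9.31% and in Control Rps27a at 38.2%.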
